A study of Canis lupus familiaris with 34 samples.

Results

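The mitral valves described here are the 11 with the highest and the 11 with the lowest FOS level among 34 Cavalier King Charles Spaniels. The level was measured in counts per 1000000 counts of the library (CPM), and the dogs were chosen by ranking all 34 on it. They are called FOS-high and FOS-low, and the other 12 dogs lie between them. FOS left the comparison, since the ranking used it, and every other gene was compared between the groups with congestive heart failure (CHF) status and sex in the model.

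The study compared valves of elderly dogs, of about 10 years, without CHF (10y-noCHF, 19 dogs) and with CHF caused by myxomatous mitral valve disease (10y-MMVD-CHF, 15 dogs). All were privately owned dogs of 1 breed, and the valves were taken after sedation and elective euthanasia. The delay from death to preservation was not given for each dog, and its part in the FOS levels was not tested. The 10y-noCHF group is mixed, because all but 1 of its dogs had the valve disease, at different stages before heart failure. FOS-high held 7 10y-noCHF dogs (5 females, 2 males) and 4 10y-MMVD-CHF dogs (2 females, 2 males), and FOS-low held 6 (3 females, 3 males) and 5 (2 females, 3 males). The 12 dogs between were 6 of each status.

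FOS is an immediate-early gene: growth factors, stretch, injury and other stimuli switch it on within minutes through transcription factors that are already present in the cell. Its protein pairs with JUN-family proteins to form AP-1, which acts on later genes. The same stimuli switch on EGR, NR4A and KLF transcription factors, and then inhibitors such as DUSP1, ZFP36 and SOCS3 that end the signal. In valve tissue such genes can be active in interstitial cells, endothelium and immune cells alike. In bulk tissue, more cells with a transcript and more transcript per cell cannot be told apart.

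The FOS feature lies on the plus strand of canFam4 chr8:48649032-48652435 and comes from the human gene models aligned to the dog genome, so exonic and intronic reads both count. No other feature of the annotation overlaps it. FOS CPM was 64.8 at the lowest, 89.6 at the median and 301 at the highest in FOS-high dogs. In FOS-low dogs it was 33.8, 38.3 and 42.8, a far narrower range. Just outside FOS-high stood CAV748 at 61.3 CPM, beside CAV1259 at 64.8 inside it. Just outside FOS-low stood CAV1784 at 43.8 CPM, beside CAV487 at 42.8 inside it. The dogs thus lie on a continuous scale with a tail at the top, where CAV1732 (10y-noCHF) at 301, CAV648 (10y-MMVD-CHF) at 168 and CAV1872 (10y-MMVD-CHF) at 156 CPM stood above the rest.

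FOS did not follow heart failure in a way that exceeded the spread between dogs. FOS CPM ran from 33.8 over a median of 60.8 to 301 in 10y-noCHF dogs, and from 35.99 over 49.1 to 168 in 10y-MMVD-CHF dogs. On the log2(CPM + 1) scale the means were 5.99 ± 0.76 (SD, n = 19) and 5.85 ± 0.68 (SD, n = 15), a difference of -0.14. A two-sided permutation test within sex gave p = 0.588. That result is for FOS alone. Among early-response genes named below, the study reported FOSB, ATF3 and DUSP10 as lower in dogs with CHF.

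Total counts per dog ranged from 46185256 to 82361245 over the 34 dogs, with medians of 63011628 in FOS-high and 56499050 in FOS-low. Reads were counted per mate and for every feature they overlapped, so totals are not fragments. The labelled tissue carried its markers: the 11 valve interstitial cell genes summed to 15880 to 40920 CPM over the 22 dogs, and each was detected in every dog. Cardiomyocyte genes summed to 116 to 58970 CPM, highest in CAV1047, a FOS-low dog with the lowest total count.

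**Figure D1:**
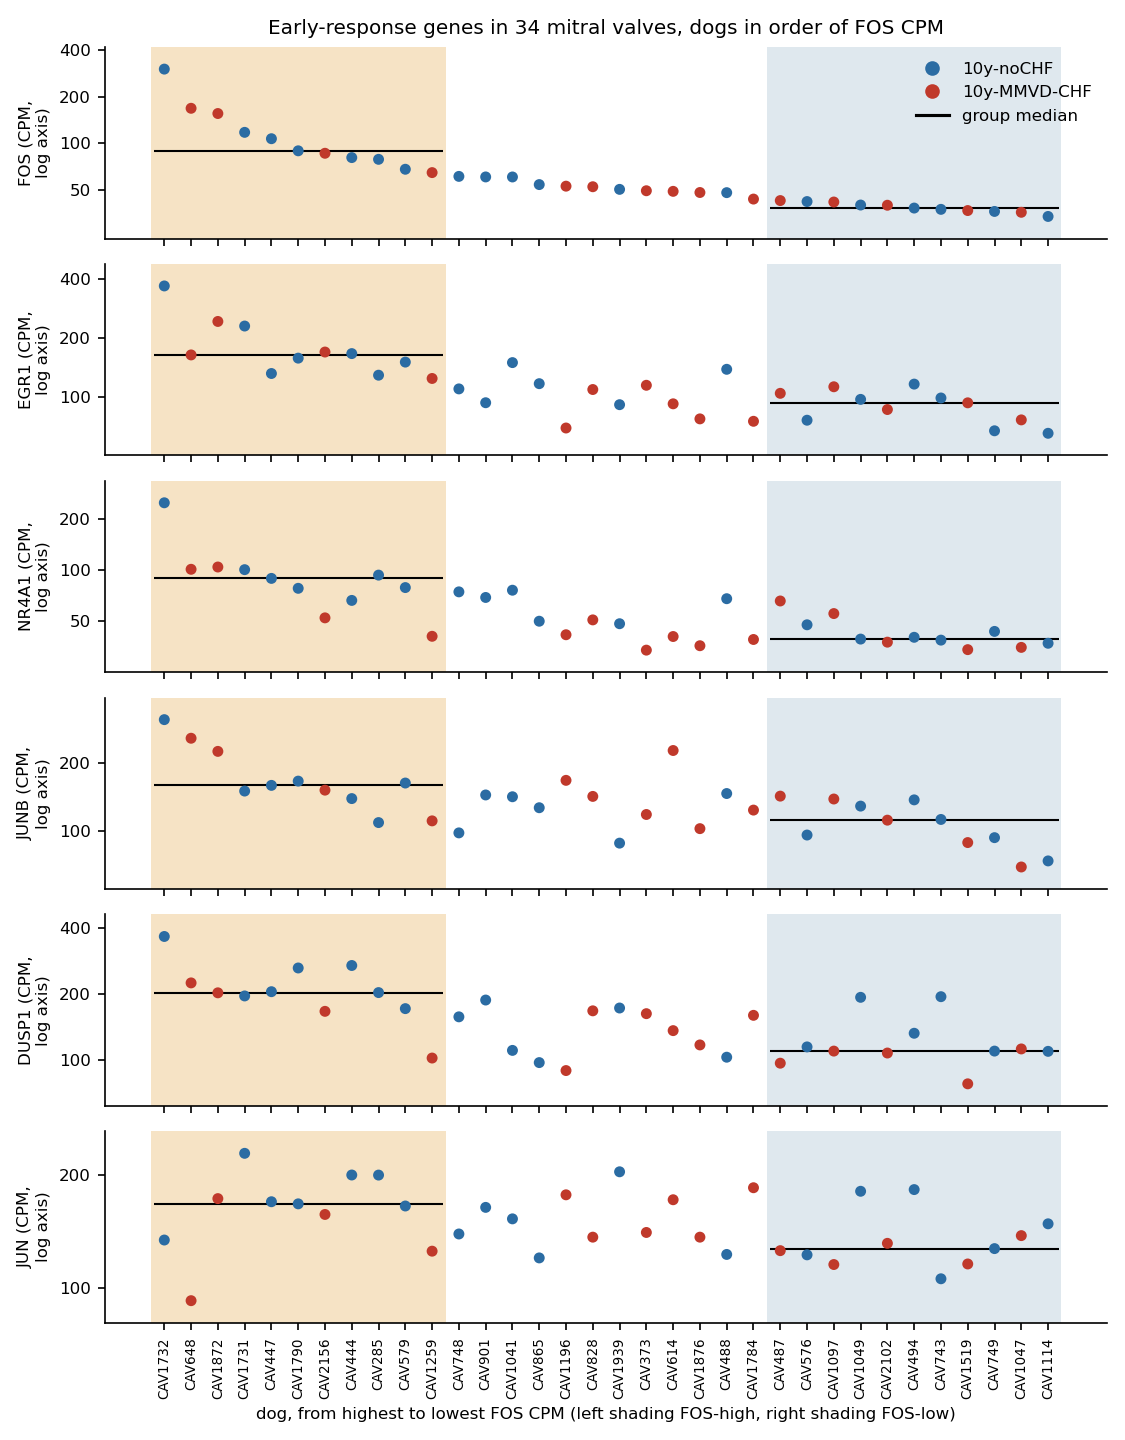
CPM of FOS, EGR1, NR4A1, JUNB, DUSP1 and JUN on log axes in each of the 34 dogs, ordered by FOS CPM, with black lines at the medians of the 11 FOS-high and 11 FOS-low dogs. EGR1 is above 124 CPM in every FOS-high dog and below 117 CPM in every FOS-low dog, whereas the groups overlap for the other genes and JUN overlaps widely.

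Of 19567 features tested, none differed between FOS-high and FOS-low at a false discovery rate (FDR) below 0.1 in edgeR's quasi-likelihood test (0.0% called). The smallest FDR was 0.269, for EGR1. At an unadjusted p below 0.05, edgeR gave 256 features higher in FOS-high (1.31%) and 165 lower (0.843%). DESeq2 on the same dogs and model called 12 features higher (0.0695%) and 2 lower (0.0116%) at FDR below 0.1, whereas limma voom called 0. With the FOS level as a slope over all 34 dogs, edgeR called 15 features, all of them higher with FOS (0.0767%).

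The features that DESeq2 or the slope called were mostly immediate-early genes. DESeq2 called EGR1, NR4A1, FOSB, JUNB, MYC, DUSP1, ZFP36, MUSTN1, ITIH3 and CBARP higher, and PTAR1 and ZNF652 lower. Without CAV1732, DESeq2 no longer called JUNB, MYC, ZFP36 or ZNF652, and it called NYAP1 higher. The slope called EGR1, NR4A1, NR4A2, JUNB, DUSP1, SOCS3, BTG2, SIK1 with its copy SIK1B, IL6, CCL26, and SLC2A3 with its near copy SLC2A14. Both approaches shared 4 gene symbols, namely EGR1, NR4A1, JUNB and DUSP1. Of 76 tested members of 5 early-response lists, 19 were higher at an unadjusted p below 0.05 in edgeR and 0 were lower, against 1.31% and 0.843% of all features (17 higher without CAV1732 and 24 without CAV1047). Their median log2 fold change was 0.19 with 69 of 76 above 0, beside a median of -0.01 and 45.5% above 0 over all features. These lists were drawn up with earlier results of these data known, so the counts are a description.

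EGR1, a zinc-finger transcription factor switched on by the same signals as FOS, separated the groups. It lies on the plus strand of canFam4 chr11:26096131-26099994. EGR1 CPM was 125, 164 and 370 at the lowest, median and highest FOS-high dog, and 65.4, 93.6 and 117 in FOS-low. Every FOS-high dog was above every FOS-low dog, which held for 1 of 19567 features (0.00511%), and for 0 in the opposite direction (0.0%). The log2 fold change was 0.97 ± 0.17 (SE), with an unadjusted p of 1.4e-05, an FDR of 0.269 in edgeR and an FDR of 0.00022 in DESeq2. Over all 34 dogs EGR1 was higher by 0.64 ± 0.07 (SE) on the log2 scale for each doubling of FOS, with an edgeR FDR of 4.1e-07. Without CAV1732 that slope was 0.63, with an edgeR FDR of 7.7e-05.

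NR4A1 encodes an orphan nuclear receptor of the early response and showed the largest difference of its list. Its feature spans canFam4 chr27:43672188-43706656 on the plus strand. NR4A1 CPM was 40.5, 89.1 and 250 at the lowest, median and highest in FOS-high, and 33.7, 38.9 and 65.5 in FOS-low. All 11 FOS-high dogs were above the FOS-low median and 9 were above every FOS-low dog. The groups differed by a log2 fold change of 1.07 ± 0.23 (SE), with an FDR of 0.538 in edgeR and 0.0037 in DESeq2. Its slope on FOS was 0.73 ± 0.06 (SE), with the smallest FDR of the slope fit in edgeR, 5.7e-10, and it was 0.68 without CAV1732. The canine NR4A1 model at the same locus gave 1.03 ± 0.21 (SE) and shares these reads.

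The other NR4A receptors differed less evenly. NR4A2 CPM was 62.6, 91.0 and 193 in FOS-high and 26.3, 60.2 and 83.7 in FOS-low, a log2 fold change of 0.64 ± 0.20 (SE). Every FOS-high dog was above the FOS-low median for NR4A2, and its slope on FOS passed at an edgeR FDR of 0.038 but not without CAV1732. NR4A3 CPM was 6.38, 23.9 and 44.1 against 12.5, 16.1 and 39.3, so the lowest dog was a FOS-high dog. Its log2 fold change was 0.28 ± 0.31 (SE) and did not pass.

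EGR2 and EGR3, relatives of EGR1, were low in the valves. EGR3 CPM was 4.10, 9.83 and 19.2 in FOS-high and 2.47, 6.80 and 10.3 in FOS-low, with a log2 fold change of 0.48 ± 0.23 (SE). EGR2 CPM was 4.57, 11.96 and 27.5 against 2.47, 9.95 and 12.9, with 0.43 ± 0.31 (SE). In both genes the ranges of the groups overlapped and the FDR in edgeR was 1.

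The Krüppel-like factors KLF2 and KLF4, which in endothelium respond to flow, were modestly higher in FOS-high. KLF4 CPM was 76.5, 113 and 136 in FOS-high and 37.5, 89.4 and 103 in FOS-low, and 8 of 11 FOS-high dogs were above every FOS-low dog. On the log2 scale the fold change was 0.35 ± 0.11 (SE) for KLF4 and 0.35 ± 0.14 (SE) for KLF2, neither of which passed. KLF6 gave 0.15 ± 0.08 (SE). KLF10 at -0.04 ± 0.10 (SE) and SRF at -0.02 ± 0.14 (SE) stayed near 0. SRF encodes the factor through which serum switches FOS itself on.

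MYC, a growth-promoting transcription factor, was 27.96, 33.4 and 47.2 CPM in FOS-high and 13.7, 27.4 and 31.3 in FOS-low. All 11 FOS-high dogs were above the FOS-low median. The log2 fold change was 0.45 ± 0.11 (SE) on the human-derived feature, with a DESeq2 FDR of 0.135, and 0.46 ± 0.11 (SE) on the canine model, with a DESeq2 FDR of 0.0987. Of the 12 tested EGR, NR4A, KLF and related factors, 7 were higher at an unadjusted p below 0.05, 0 were lower, and the median log2 fold change was 0.39. EGR4 had 4 counts in all dogs and was not tested.

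Among AP-1 factors, FOSB and JUNB stood out. FOSB, the closest relative of FOS, was rare, with 3.45, 12.9 and 29.6 CPM in FOS-high and 2.50, 3.79 and 14.5 in FOS-low. FOS-high dogs were above the FOS-low median in 10 of 11 cases, and CAV749 was the FOS-low dog that overlapped furthest. The FOSB median in FOS-high was 15.4 CPM in 10y-noCHF and 7.04 in 10y-MMVD-CHF dogs, and in FOS-low 5.83 and 2.90. The groups differed by a log2 fold change of 1.26 ± 0.28 (SE), the largest of the list, with an FDR of 0.6 in edgeR and 0.008 in DESeq2. FOSB lies on the minus strand of canFam4 chr1:110798314-110805296.

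JUNB, a JUN-family partner of FOS, was 109, 159 and 309 CPM in FOS-high and 69.7, 112 and 143 in FOS-low. Of the FOS-high dogs, 8 were above every FOS-low dog. On the log2 scale the fold change was 0.69 ± 0.17 (SE), with an FDR of 0.816 in edgeR and 0.0731 in DESeq2. Without CAV1732, JUNB did not pass in DESeq2. The slope on FOS was 0.48 ± 0.07 (SE) with an edgeR FDR of 0.00018, and with an edgeR FDR of 0.025 after CAV1732 was left out. JUNB lies on the minus strand of canFam4 chr20:49757410-49759233.

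The remaining AP-1 factors did not separate the groups. JUN, the classical partner of FOS, was 92.6, 168 and 229 CPM in FOS-high and 106, 128 and 183 in FOS-low, and its lowest dog of all 22 was in FOS-high. Its log2 fold change was 0.20 ± 0.13 (SE), beside 0.24 ± 0.15 (SE) for JUND and 0.25 ± 0.17 (SE) for FOSL2. ATF3, a stress-induced repressor of the same family, gave 0.47 ± 0.27 (SE). FOSL1, BATF, BATF3, MAFF and MAFG lay between 0.03 and 0.12. Of the 11 AP-1 factors tested, 2 were higher at an unadjusted p below 0.05 and the median was 0.20, with all 11 above 0. Without CAV1047, 8 of the 11 were above 0, 4 had an unadjusted p below 0.05 and the median was 0.12. MAFK was not analysed here.

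**Figure D2:**
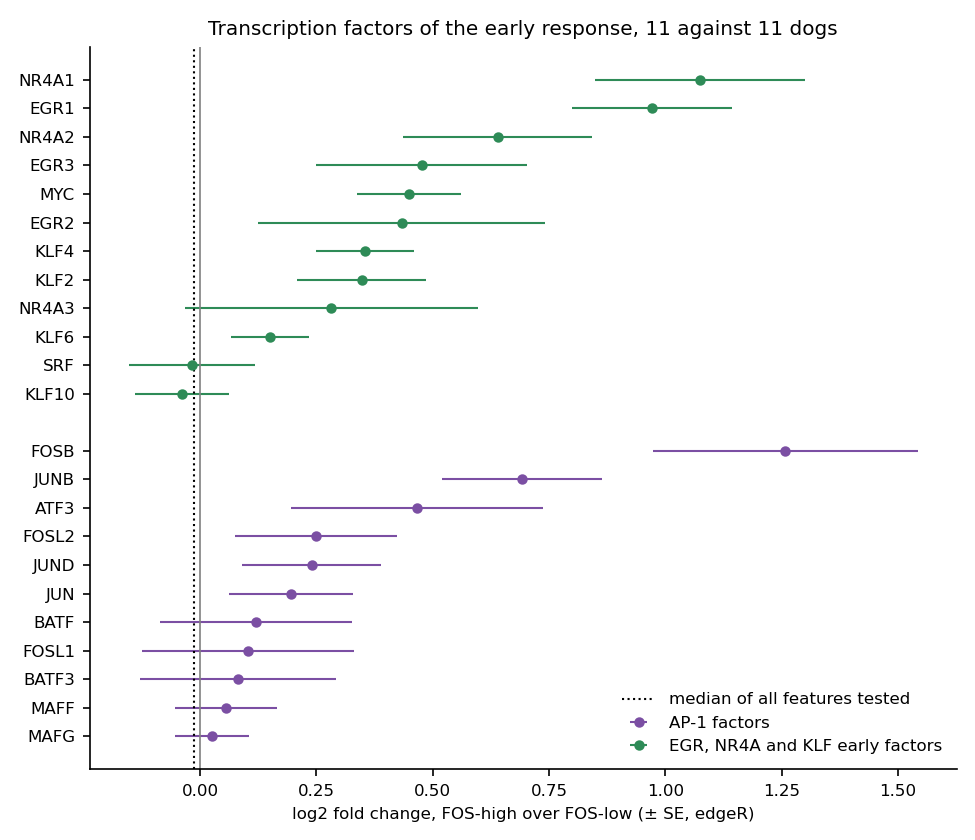
Log2 fold change of FOS-high over FOS-low with its standard error from edgeR for the 11 AP-1 factors and the 12 EGR, NR4A, KLF and related factors, with a dotted line at the median of all features. FOSB, NR4A1 and EGR1 lie near 1 or above, and KLF10, SRF and MAFG lie near 0.

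The same signals induce feedback inhibitors, of which DUSP1 had the smallest p. DUSP1, a phosphatase that switches MAP kinases off, was 102, 202 and 364 CPM in FOS-high and 77.7, 110 and 194 in FOS-low. Of the FOS-high dogs, 8 were above every FOS-low dog, whereas CAV1259 at 102 CPM lay below the FOS-low median. The log2 fold change was 0.76 ± 0.15 (SE), with an FDR of 0.538 in edgeR and 0.0037 in DESeq2. The slope on FOS was 0.49 ± 0.07 (SE) with an edgeR FDR of 0.00048. DUSP1 lies on the plus strand of canFam4 chr4:40474777-40477792.

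The other MAP kinase phosphatases and the Sprouty proteins, which dampen growth factor receptors, had smaller differences than DUSP1, and several were near 0. DUSP4 gave a log2 fold change of 0.37 ± 0.12 (SE), DUSP10 of 0.25 ± 0.12 (SE), SPRY4 of 0.37 ± 0.13 (SE) and SPRY2 of 0.23 ± 0.11 (SE). Of the 14 members tested, 4 were higher at an unadjusted p below 0.05, 0 were lower, and the median was 0.17. None of the 14 passed in edgeR. SPRED1, SPRY1, DUSP8 and DUSP6 lay between -0.04 and 0.05.

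ZFP36 encodes a protein that speeds the decay of cytokine and early-response mRNA. ZFP36 CPM was 53.6, 69.1 and 98.3 in FOS-high and 39.2, 47.4 and 74.1 in FOS-low. All 11 FOS-high dogs were above the FOS-low median and 3 were above every FOS-low dog. The groups differed by a log2 fold change of 0.43 ± 0.10 (SE), with an FDR of 0.6 in edgeR and 0.056 in DESeq2. NFKBIA, which holds NF-kB in the cytoplasm, gave 0.27 ± 0.10 (SE).

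SOCS3, an inhibitor of JAK-STAT signalling, gave 0.49 ± 0.19 (SE) on the human-derived feature and 0.60 ± 0.18 (SE) on the canine model. Only the canine model passed in the slope, at an edgeR FDR of 0.092, and the human-derived one had 0.14. Of the 19 feedback inhibitors tested, 3 were higher at an unadjusted p below 0.05, 0 were lower, and the median was 0.18. Without CAV1047, 6 of the 19 were higher and the median was 0.23.

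All 20 tested members of the remaining immediate-early list had fold changes above 0 (19 of 20 without CAV1047), with a median of 0.17, and 3 had an unadjusted p below 0.05. These were IER2 at 0.40 ± 0.14 (SE), CCN1 at 0.36 ± 0.14 (SE) and TIPARP at 0.24 ± 0.08 (SE). CCN1, a matrix-bound protein induced by growth factors and stretch, was 158, 248 and 270 CPM in FOS-high and 110, 165 and 253 in FOS-low. BTG2, an inhibitor of proliferation, gave 0.36 ± 0.19 (SE). Its slope on FOS had an edgeR FDR of 0.093, and without CAV1732 the FDR was 1.

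SIK1, a kinase induced by cAMP, was called by the slope at an edgeR FDR of 0.012. SIK1 CPM was 17.2, 40.2 and 76.9 in FOS-high and 16.4, 22.6 and 39.1 in FOS-low, with 0.70 ± 0.22 (SE) as the log2 fold change. Its FDR in the slope was 0.48 without CAV1732. The feature SIK1B has the same count in all 34 dogs, so the pair is 1 measurement.

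Read dog by dog, the early response varied widely within each group. Each of the 76 early-response features was scored as above or below its own median over the 34 dogs. The share above was 42.1%, 63.2% and 82.9% at the lowest, median and highest in FOS-high dogs, and 17.1%, 43.4% and 64.5% in FOS-low dogs. In the 12 dogs between it was 21.05%, 41.45% and 73.7%, so their median was below that of FOS-low and the group medians did not follow the order of FOS. Over all 19567 features the same shares had medians of 51.8% and 49.8%. CAV579, with 68.1 FOS CPM, had the highest share of early-response features, and CAV1259, at the edge of FOS-high, the lowest of its group.

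CAV1732, the dog with the most FOS, held the highest CPM of the 34 dogs for 18 of the 76 early-response features, and for 5.26% of all features. Its early-response features included EGR1, NR4A1, NR4A2, JUNB, FOSB and DUSP1. CAV614, a 10y-MMVD-CHF dog in neither group with 49.1 FOS CPM, held the highest CPM for 17 of the 76, and for 9.21% of all features. ZFP36, IER2, CCN1 and CEBPD were highest in CAV614, with ZFP36 at 127 CPM. The valve of CAV614 also had the highest sums of red blood cell genes, 2273 CPM with HBA1 and HBA2 counted once, and neutrophil genes, 166 CPM, and the part of these in its values was not tested.

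**Figure D3:**
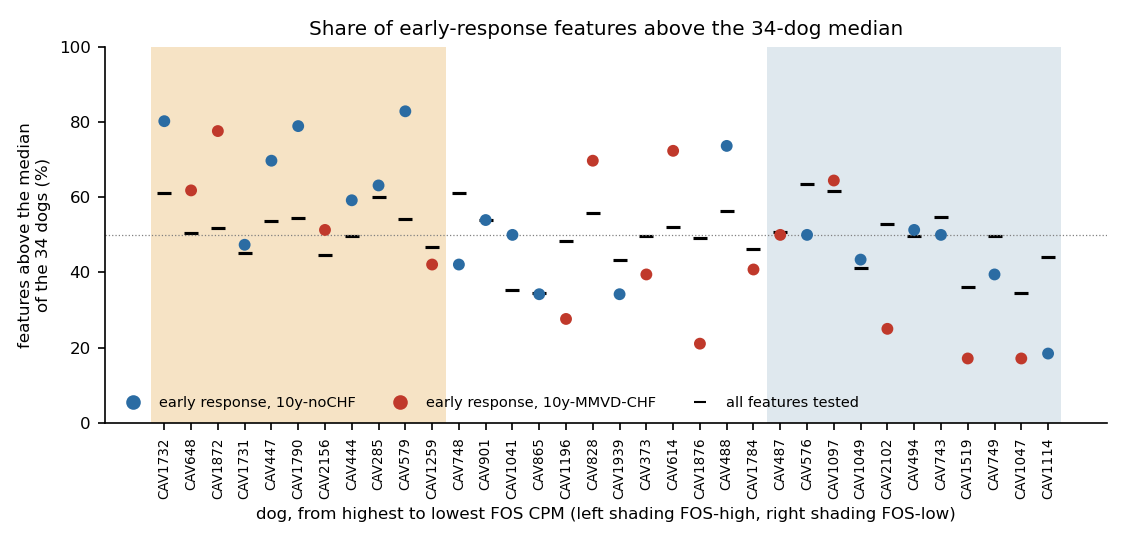
For each dog in order of FOS CPM, the percentage of the 76 early-response features that lay above their 34-dog median (points, coloured by CHF status) and the same for all features tested (dashes). FOS-high dogs run from 42.1% to 82.9% and FOS-low dogs from 17.1% to 64.5%, and among the 12 dogs between, CAV614 and CAV488 exceed 70%.

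Early cytokines and chemokines varied widely between dogs. IL6, a cytokine of early inflammation, was 0.39, 0.51 and 12.4 CPM in FOS-high and 0, 0.45 and 2.68 in FOS-low. The medians were close, and the difference came from a few dogs with CAV1732 at the top. On the log2 scale the fold change was 2.06 ± 0.86 (SE), and the slope had an edgeR FDR of 0.019, which was 1 without CAV1732. CCL26, an eosinophil chemokine, was at 0 in 29 of 34 dogs and at its highest, 1.18 CPM, in CAV1732, so its call in the slope rests on that dog and few others.

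CXCL10, a chemokine induced by interferon, was lower in FOS-high at 0.069, 1.16 and 7.29 CPM, against 0.32, 2.73 and 6.59 in FOS-low. Its log2 fold change was -1.22 ± 0.55 (SE) and the highest dog of all was in FOS-high. PTGS2, the inducible prostaglandin synthase, gave 0.51 ± 0.25 (SE). Of the 20 genes tested, 1 was higher and 1 lower at an unadjusted p below 0.05, and the median was 0.16. Without CAV1047 the median was 0.04, with 0 higher and 1 lower, and without CAV1732 it was 0.13, with 0 in either direction. Within 10y-noCHF the median was -0.07 with 8 of 20 above 0, and within 10y-MMVD-CHF it was 0.69 with 17 of 20. Without CAV1732 the 10y-noCHF median was -0.29 with 5 above 0. Without CAV1047 the 10y-MMVD-CHF median was 0.40 with 15 above 0. SLC2A3, a glucose transporter called by the slope, had close medians of 31.8 CPM in FOS-high and 32.3 in FOS-low, with 112 CPM in CAV1732.

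Other stress programmes had medians near 0, and for heat shock and hypoxia genes the sign of the median depended on CAV1047. None of the 20 heat shock proteins and co-chaperones had an unadjusted p below 0.05 in edgeR, 7 were above 0 and the median was -0.04. Without CAV1047, 13 of the 20 were above 0, the median was 0.09 and 1 was higher at an unadjusted p below 0.05. HSPA1A, an inducible HSP70, had the largest fold change of that list at 0.59 ± 0.38 (SE), with 10.7, 90.5 and 170 CPM in FOS-high and 25.3, 40.6 and 76.2 in FOS-low. Its feature overlaps HSPA1B, and reads in common were counted for both.

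Hypoxia and glycolysis genes gave 0 of 18 at an unadjusted p below 0.05 and a median of -0.06, with 5 above 0. Without CAV1047 the median was 0.02, with 10 of 18 above 0 and 1 higher at an unadjusted p below 0.05. In the unfolded protein and integrated stress response list, 1 of 17 had an unadjusted p below 0.05, CEBPB at 0.23 ± 0.11 (SE), and the median was 0.00. Without CAV1047 that median was -0.03, with 2 higher at an unadjusted p below 0.05. DDIT4, a stress-induced inhibitor of mTOR, gave 0.45 ± 0.22 (SE), and HIF3A, of the hypoxia list, 0.70 ± 0.38 (SE).

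Of 14 glucocorticoid-responsive genes, 4 were higher at an unadjusted p below 0.05, 0 were lower, and the median was 0.16 with 11 above 0. The 4 were DUSP1, NFKBIA, PER1 and CEBPD, of which DUSP1 and NFKBIA are also counted above. Without CAV1047 the median was 0.34 with 13 of 14 above 0. PER1, a clock gene that glucocorticoids induce, was 58.7, 75.7 and 164 CPM in FOS-high and 42.6, 65.7 and 102 in FOS-low, with 0.43 ± 0.17 (SE). CEBPD gave 0.61 ± 0.23 (SE) and MT2A, a metallothionein, 0.50 ± 0.28 (SE). Of 16 circadian clock genes, PER1 and BHLHE40 at 0.28 ± 0.12 (SE) had an unadjusted p below 0.05, 8 were above 0, and the median was 0.01. Without CAV1047, 1 clock gene had an unadjusted p below 0.05 and the median was 0.02, and without CAV1732 the median was 0.07.

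**Figure D4:**
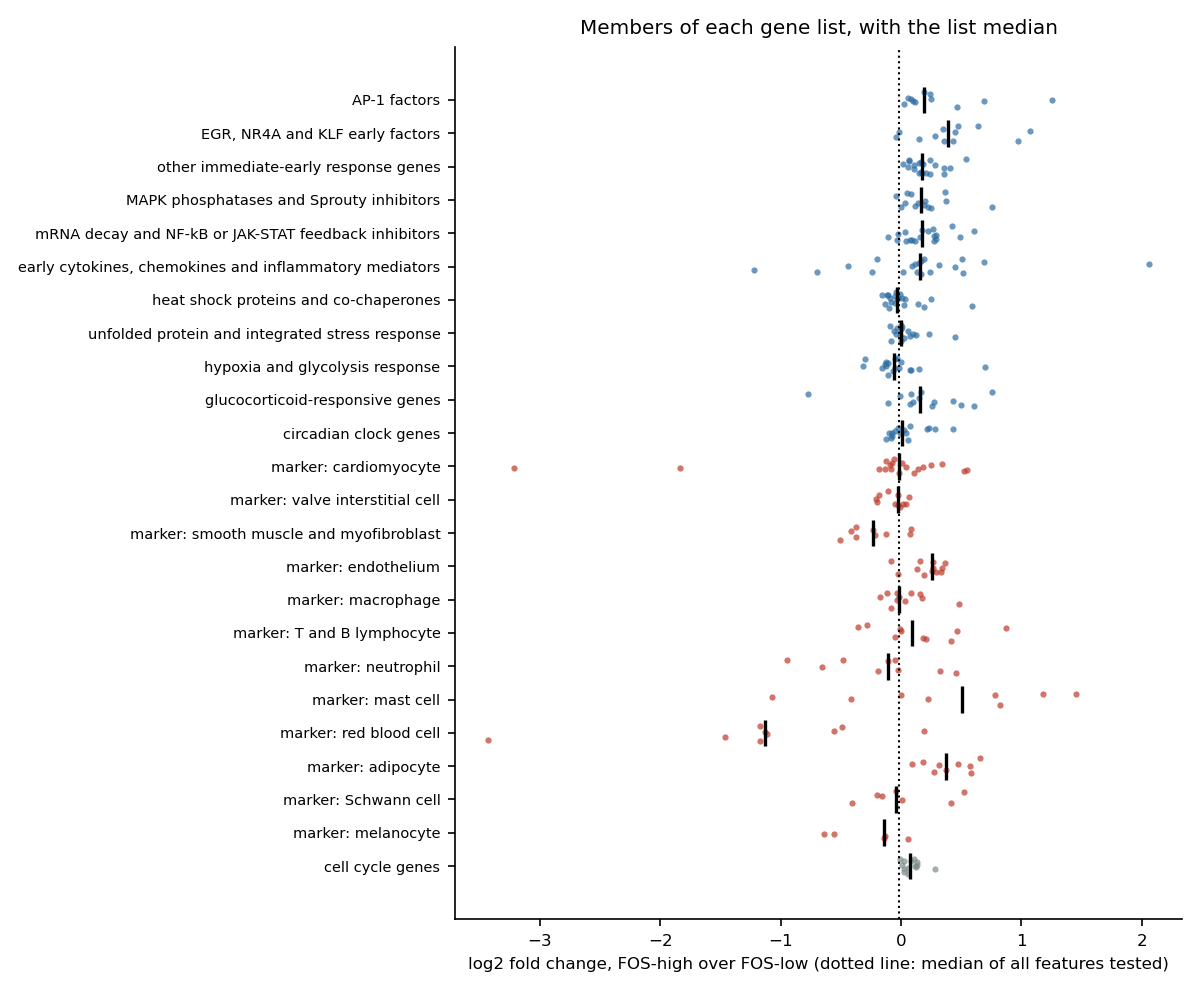
Log2 fold change of FOS-high over FOS-low for each tested member of every gene list, with a black bar at the list's median and a dotted line at the median of all features. Programme lists are blue, cell type markers red and cell cycle genes grey. The 5 early-response lists have medians of 0.17 to 0.39, the heat shock and hypoxia lists lie at -0.04 and -0.06, and red blood cell markers at -1.13, where HBA1 and HBA2 are 2 points of 1 measurement.

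Outside the lists, several of the features that were higher in FOS-high were neighbours on canFam4 chromosome 20. MUSTN1, a small nuclear protein of the musculoskeletal system at chr20:37399591-37400160, was 19.9, 35.95 and 107 CPM in FOS-high and 9.77, 16.6 and 42.5 in FOS-low. All 11 FOS-high dogs were above the FOS-low median. The log2 fold change was 1.16 ± 0.26 (SE), with an FDR of 0.6 in edgeR and 0.008 in DESeq2. CAV648 had the highest MUSTN1 of the 34 dogs.

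ITIH3, a heavy chain of the inter-alpha-trypsin inhibitor that is linked to hyaluronan in the matrix, lies beside it at chr20:37421663-37435664. ITIH3 CPM was 8.09, 19.3 and 31.8 in FOS-high and 4.57, 8.59 and 17.9 in FOS-low, and 7 of 11 FOS-high dogs were above every FOS-low dog. The groups differed by a log2 fold change of 1.06 ± 0.26 (SE), with an FDR of 0.816 in edgeR and 0.0387 in DESeq2. The neighbours ITIH1 at 0.84 ± 0.25 (SE), ITIH4 at 0.78 ± 0.26 (SE) and ITIH4-AS1 at 0.68 ± 0.25 (SE) were higher as well. So was the readthrough STIMATE-MUSTN1 at 0.63 ± 0.16 (SE). The interval of ITIH1 contains those of MUSTN1, ITIH4, ITIH4-AS1 and ITIH3, and counting ignored strand, so these features share reads and are not independent. On the flanks the difference ended, with STIMATE at -0.05 ± 0.08 (SE), NEK4 at 0.04 ± 0.05 (SE) and GLT8D1 at -0.11 ± 0.06 (SE). The study reported ITIH4-AS1 as higher in dogs with CHF. In FOS-low dogs the ITIH3 median was 6.24 CPM in 10y-noCHF and 13.45 CPM in 10y-MMVD-CHF.

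CBARP, a regulator of calcium channels, was 5.71, 6.89 and 8.50 CPM in FOS-high and 4.01, 5.18 and 6.52 in FOS-low, with 0.41 ± 0.10 (SE) and a DESeq2 FDR of 0.034. F13A1, the A subunit of coagulation factor XIII, which resident macrophages make, was 105, 170 and 218 CPM against 53.4, 122 and 162. Its log2 fold change was 0.51 ± 0.14 (SE). NYAP1 at 0.39 ± 0.10 (SE), EARS2 at 0.36 ± 0.10 (SE) and CENPW at 0.96 ± 0.26 (SE) complete the 15 genes with the smallest p among those higher. None of them passed in edgeR.

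DESeq2 called 2 genes lower in FOS-high. PTAR1, which carries prenyltransferase alpha subunit repeats, at chr1:88380632-88433384, was 25.4, 34.2 and 42.5 CPM in FOS-high and 32.5, 44.7 and 53.7 in FOS-low, and all 11 FOS-high dogs were below the FOS-low median. On the log2 scale the fold change was -0.42 ± 0.09 (SE), with an FDR of 0.6 in edgeR and 0.0341 in DESeq2. ZNF652, a zinc-finger repressor, was 25.5, 30.2 and 32.7 CPM against 29.4, 33.95 and 40.99, with -0.27 ± 0.06 (SE) and a DESeq2 FDR of 0.0946.

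Others among the lower 15 with the smallest p were SQOR at -0.28 ± 0.08 (SE), which oxidises hydrogen sulfide, GAS1 at -0.30 ± 0.10 (SE), a hedgehog co-receptor that is high in resting fibroblasts, and CEP20, SNX7 and SLC25A38 between -0.21 and -0.30. PIGY and PYURF had the same count in every dog, and both stood at -0.26 ± 0.08 (SE). SLC6A7 at -0.70 ± 0.24 (SE), IL12B at -0.97 ± 0.33 (SE) and DMKN at -2.82 ± 0.89 (SE) had medians below 3 CPM in both groups.

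EGR1, DUSP1, ZFP36, JUNB and NR4A1 had fold changes above 0 within each status, although neither status gave a call with all its dogs. These genes were among the early genes with the smallest p in the fit of both statuses together, which used the same dogs. Their shared sign was therefore largely set by that choice and is not a separate test. In 10y-noCHF dogs 0 features passed (0.0%), with 765 at an unadjusted p below 0.05 in edgeR (3.91%). Without CAV1732, 4 features passed in 10y-noCHF (0.0204%), namely both features of NR4A1, ITIH3 and MUSTN1. In 10y-MMVD-CHF dogs 0 passed (0.0%), with 628 at an unadjusted p below 0.05 (3.21%). EGR1 gave a log2 fold change of 1.05 ± 0.26 (SE) in 10y-noCHF and 0.85 ± 0.19 (SE) in 10y-MMVD-CHF. DUSP1 gave 0.79 ± 0.20 (SE) and 0.74 ± 0.22 (SE), and ZFP36 0.45 ± 0.13 (SE) and 0.39 ± 0.14 (SE). JUNB stood at 0.57 ± 0.22 (SE) and 0.78 ± 0.23 (SE), and NR4A1 at 1.28 ± 0.27 (SE) and 0.72 ± 0.31 (SE). Without CAV1732 the 10y-noCHF values were 0.87 ± 0.20 (SE) for EGR1, 1.02 ± 0.10 (SE) for NR4A1 and 0.43 ± 0.17 (SE) for JUNB.

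EGR1 CPM ran from 130 to 370 in the 7 FOS-high 10y-noCHF dogs and from 65.4 to 117 in the 6 FOS-low ones. In 10y-MMVD-CHF it ran from 125 to 244 in the 4 FOS-high dogs and from 76.6 to 113 in the 5 FOS-low dogs. Within 10y-noCHF, every FOS-high dog was above every FOS-low dog for 19 features (0.0971%), and EGR1, NR4A1 and ATF3 were the early-response members among them. Of the 76 early-response features, 46 had fold changes above 0 in both statuses, 11 in 10y-noCHF alone, 18 in 10y-MMVD-CHF alone and 1 in neither. Of the 76, 57 were above 0 in 10y-noCHF and 64 in 10y-MMVD-CHF, beside 10085 and 9338 of all 19567 features. How many of all features were above 0 in both was not counted, so the 46 cannot be read as agreement gene by gene.

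No feature passed for the interaction of FOS group and CHF status in edgeR (0.0%), with a smallest FDR of 0.467. At an unadjusted p below 0.05, edgeR gave 1679 features (8.58%), among them 8 of the 76 early-response features. Limma voom also called 0. The smallest interaction p values among listed genes belonged to MRC1, NDRG1, NR4A3, ATF3 and HSP90B1, and none of these has an FDR below 0.467. NR4A3 was 14.9 to 44.1 CPM in FOS-high and 12.5 to 18.5 in FOS-low among 10y-noCHF dogs, a log2 fold change of 0.99 ± 0.24 (SE). Among 10y-MMVD-CHF dogs it was 6.38 to 28.2 in FOS-high and 14.6 to 39.3 in FOS-low, a log2 fold change of -0.78 ± 0.44 (SE), or -0.61 ± 0.52 (SE) without CAV1047.

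ATF3 gave 1.07 ± 0.28 (SE) in 10y-noCHF and -0.38 ± 0.30 (SE) in 10y-MMVD-CHF, where it was -0.06 ± 0.27 (SE) without CAV1047. SIK1 gave 1.10 ± 0.25 (SE) and 0.12 ± 0.29 (SE). ITIH3 gave 1.52 ± 0.22 (SE) and 0.31 ± 0.37 (SE), and 0.15 ± 0.34 (SE) in 10y-MMVD-CHF without CAV1047. ARC, an early gene named for its place in the plot after its values were seen, was at most 1.12 CPM and had an SE of 1.002 and 1.205 within the statuses. MRC1, a macrophage receptor, ran the opposite way at -0.38 ± 0.23 (SE) in 10y-noCHF and 0.92 ± 0.23 (SE) in 10y-MMVD-CHF.

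Cell type markers differed alongside these values. All 9 tested adipocyte markers were above 0 in 10y-noCHF, with a median of 1.57, and 0 of 9 in 10y-MMVD-CHF, with a median of -0.78, or 3 of 9 and -0.08 without CAV1047. Of 19 cardiomyocyte markers, 17 were above 0 in 10y-noCHF (median 0.55) and 0 in 10y-MMVD-CHF (median -0.86). Without CAV1047 the cardiomyocyte markers in 10y-MMVD-CHF turned to 18 of 19 above 0 (median 0.53). Of 11 macrophage markers, 1 was above 0 in 10y-noCHF (median -0.27) and 11 in 10y-MMVD-CHF (median 0.47, or 0.25 without CAV1047). Of 10 T and B lymphocyte markers, 2 were above 0 in 10y-noCHF (median -0.28) and 9 in 10y-MMVD-CHF (median 0.76, or 0.17 without CAV1047). Of 9 neutrophil markers, 0 were above 0 in 10y-noCHF (median -0.48) and 7 in 10y-MMVD-CHF (median 0.56, or 0.20 without CAV1047). The part of all these markers in the values of NR4A3, ATF3, SIK1, ITIH3 and MRC1 was not tested.

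**Figure D5:**
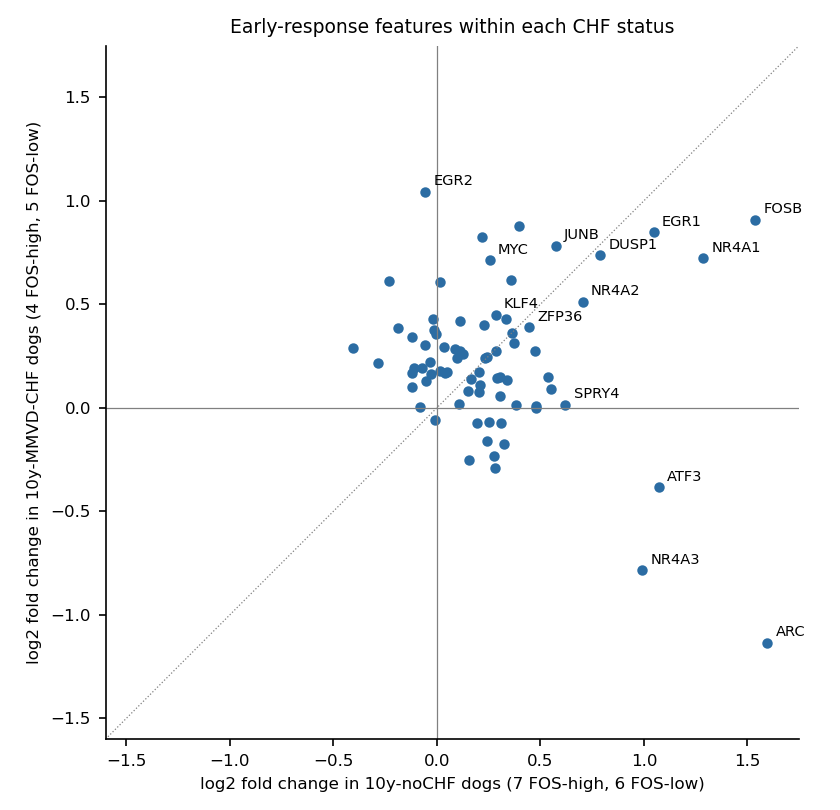
Log2 fold change of FOS-high over FOS-low for each of the 76 early-response features in 10y-noCHF dogs (x axis, 7 against 6 dogs) and 10y-MMVD-CHF dogs (y axis, 4 against 5 dogs), with a dotted line where both are equal. EGR1, NR4A1, FOSB, JUNB and DUSP1 lie above 0.5 in both, whereas ATF3 and NR4A3 are near 1 on the x axis and below 0 on the y axis.

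In the 12 dogs of neither group, which the grouping did not use, FOS spanned 43.8 to 61.3 CPM. No feature had a slope on FOS at an FDR below 0.1 in edgeR (0.0%, smallest FDR 0.986), and limma voom also called 0. At an unadjusted p below 0.05, edgeR gave 394 features higher with FOS (2.01%) and 383 lower (1.96%). Over this narrow range the errors were wide: EGR1 had a slope of 0.49 ± 0.89 (SE), NR4A1 of 0.92 ± 0.57 (SE), JUNB of 0.98 ± 1.005 (SE) and DUSP1 of 0.98 ± 0.87 (SE). Each lay within 1 SE of the same gene's slope over all 34 dogs and none had an unadjusted p below 0.05, so a relation of that size was not detectable over this range.

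SIK1 had a slope of 2.57 ± 0.60 (SE) in these dogs, with an FDR of 0.986 in edgeR. Of the 76 early-response features, 0 were higher and 3 lower with FOS at an unadjusted p below 0.05, and 47 had slopes above 0. Of all 19567 features, 10196 had slopes above 0. HSPA1A and its co-chaperone DNAJB1 had slopes of -4.26 ± 1.59 (SE) and -2.41 ± 0.79 (SE), the opposite sign to their fold changes between the groups. CAV488, a 10y-noCHF dog with 48.2 FOS CPM, had the highest HSPA1A and DNAJB1 of all dogs.

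Marker lists of other cell types were compared between the groups as a whole. HBA1 and HBA2 have the same count in all 34 dogs, so the pair is 1 measurement, and with it counted once 7 of 8 tested red blood cell markers were below 0, with a median of -1.12. Their summed CPM on that count was 3.56, 18.7 and 60.5 in FOS-high and 4.86, 37.8 and 509 in FOS-low, which overlap. HBM and ALAS2 had an unadjusted p below 0.05 in edgeR (1 of the 8 without CAV1047), and HBM was at a median of 0 in both groups. HBE1, HBG1 and HBG2 had 0 counts in all dogs.

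Endothelial markers had a median of 0.26, with 10 of 12 above 0. TIE1, an endothelial receptor, gave 0.29 ± 0.13 (SE), and the summed CPM was 690, 1012 and 2078 in FOS-high and 606, 927 and 1244 in FOS-low. All 9 adipocyte markers were above 0 with a median of 0.37 (0.84 without CAV1047), and their sums were 18.4, 124 and 449 CPM in FOS-high and 11.3, 53.3 and 456 in FOS-low. The 9 smooth muscle and myofibroblast markers had a median of -0.23, with 2 above 0.

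Valve interstitial cell markers stood at a median of -0.03, cardiomyocyte markers at -0.02 and macrophage markers at -0.02. Without CAV1047 the cardiomyocyte markers had a median of 0.56, with 17 of 19 above 0, the valve interstitial cell markers of -0.11 and the macrophage markers of -0.10. Without CAV1732 the interstitial and macrophage medians were both 0.02. LYVE1, a receptor of resident macrophages and lymphatic endothelium, was 0.48 ± 0.19 (SE). It was the highest of the 11 macrophage markers, of which 5 were above 0 and 6 below. Of the cardiomyocyte markers MYL2 gave -3.21 ± 1.46 (SE), with up to 554 CPM in a FOS-low dog. T and B lymphocyte markers had a median of 0.09, neutrophil markers of -0.11, mast cell markers of 0.50, Schwann cell markers of -0.04 and melanocyte markers of -0.14. The mast cell median was 0.75 without CAV1047 and 0.13 without CAV1732, the neutrophil median -0.23 and -0.58, and the lymphocyte median -0.02 and 0.02. Mast cell sums were at most 72.1 CPM and neutrophil sums at most 51.0 CPM in the 22 dogs.

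The defining genes CPA3, MS4A2, FCER1A and TPSB2 of mast cells, CXCR2 and MPO of neutrophils, and MLANA and TYR of melanocytes were at 0 in at least 1 dog. The 14 cell cycle genes had a median of 0.07 with 13 above 0 (0.02 and 8 without CAV1047), and 0 had an unadjusted p below 0.05 in edgeR. With the mean of the cardiomyocyte markers added to the model, the 76 early-response features had a median of 0.19, and EGR1 stood at 0.97. Of the 76, 19 were higher at an unadjusted p below 0.05 in edgeR and 0 were lower. Over all 19567 features that fit gave 353 higher and 331 lower, against 256 and 165 without the added mean. The part of endothelial, adipocyte and red blood cell markers in the early-gene values was not tested.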

How the data were processed

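RNA from mitral valves was sequenced as paired reads of poly-A mRNA libraries, 1 per dog. The authors mapped reads to canFam4 with STAR and counted them with featureCounts 2.0.3, without strand and for every overlapping feature, on canine RefSeq exons (2165 features) and aligned human gene intervals (21603). The deposited counts are raw, and 1 column belongs to no sample here and was not used.

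FOS was left out, and features with at least 100 counts over the 34 dogs were tested. The model was edgeR 4.0.16 (quasi-likelihood, TMM) in R 4.3.3 with sex, CHF status and FOS group, at an FDR of 0.1. DESeq2 1.42.0 and limma 3.58.1 voom were alternatives, and the fits were tested on simulated data. SE is edgeR's log2 fold change over the root of F. A gene with several features is given as that with the most counts. CPM uses all deposited counts of a dog, and each dog is 1 replicate.

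The members, lists and tests were chosen with earlier results of these data known. Named are all tested AP-1 and EGR, NR4A and KLF factors, up to 5 members of smallest p per other list, the 15 genes of smallest p in each direction, listed genes of smallest interaction p and calls of DESeq2 or the slope. FOS by CHF status was tested with 100000 permutations. Other settings were RLE and upper-quartile scaling, filterByExpr, no filter, no sex term, other group sizes, a cardiomyocyte covariate, 1 feature per symbol, an FDR of 0.05 and leaving out dogs.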

Additional observations from a re-analysis of the deposited data

Results flagged for a closer look

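Within groups of 4 to 10 dogs, a dog was singled out when its gap to the nearest dog was large for the range of the group, by Dixon's 95% value. This was done for FOS by CHF status and sex and for 8 genes by FOS group and CHF status, 36 groups in all. It singled out 8 values, each the highest of its group. A rate of 1 in 20 would give 1.8, but that rate holds for independent, normally distributed values. FOS CPM has a tail at the top, and CAV1732 was singled out for FOS, EGR1, NR4A1 and JUNB alike. The 8 can therefore not be read against 1.8.

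For FOS itself the highest female of 10y-MMVD-CHF, CAV1872 at 155.7 CPM, stood above the next at 64.83. The highest male of 10y-MMVD-CHF, CAV648, had 168.3 CPM against 86.36 for the next. The highest female of 10y-noCHF, CAV1732, had 300.8 CPM against 117.8.

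In the FOS-high 10y-noCHF dogs CAV1732 also stood apart for EGR1 at 370.4 CPM (next 231.1), NR4A1 at 250 CPM (next 100.4) and JUNB at 309.4 CPM (next 166.1). Among FOS-low dogs, CAV749 had 14.46 CPM of FOSB against 7.227 for the next 10y-noCHF dog, and CAV1097 had 66.68 CPM of ZFP36 against 45.31 for the next 10y-MMVD-CHF dog.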

How the results depend on the processing

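The edgeR comparison of FOS-high with FOS-low called 0 features under RLE or upper-quartile scaling, filterByExpr, no filter, an added cardiomyocyte covariate, groups of 8 or of 17 dogs, 1 feature per symbol, robust dispersion, an FDR of 0.05 and without CAV1047, and limma voom called 0. Without the sex term it called 1, EGR1. DESeq2 called 14 features, 11 without CAV1732. The slope on FOS over 34 dogs called 15 in edgeR, 5 without CAV1732, and 25 in DESeq2. Robust dispersion, the DESeq2 slope, the runs of DESeq2 and of the slope without CAV1732, and the runs of the interaction and within a status without CAV1732 or CAV1047 were added after the data were seen. Leaving out each of the 22 dogs gave 0 to 4 calls, with 0 in 20 of 22 fits, 4 without CAV1259 and 3 without CAV1732, in each case features of EGR1 and NR4A1 and, without CAV1259, DUSP1. The interaction and the slope in the 12 dogs between called 0 under every setting run. The fits within a status called 0, and with 1 dog left out 4 in 10y-noCHF without CAV1732 and 0 in 10y-MMVD-CHF without CAV1047. The p of FOS by CHF status ranged from 0.588 to 0.658. The cause of the difference between edgeR and DESeq2 was not tested.

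Some genes near 0 changed sign. SRF gave 0.002736 in the DESeq2 slope, 0.005 without the sex term, 0.004844 in the slope, 0.06676 in 17 against 17 dogs and 0.09924 without CAV1047. BATF3 gave -0.02262 in DESeq2 and -0.0145 in the slope without CAV1732, -0.06503 in 17 against 17 dogs and -0.03255 without CAV1047, where MAFF gave -0.01096 and MAFG -0.02519. HSP90B1 gave 0.02323 in the DESeq2 slope, 0.02493 in the slope, 0.0291 in the slope without CAV1732 and 0.000731 in 17 against 17 dogs, and there ARC gave -0.158. CCL26, at 0 in most dogs, gave -2.214 in DESeq2 without CAV1732.

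Each library had at least 46185256 counts, so depth limited genes of few CPM such as IL6, CCL26, ARC and FOSB more than EGR1 or DUSP1. Counting reads for all overlapping features leaves ITIH3 and MUSTN1, HSPA1A, and SLC2A3 uncertain. No paired analysis was possible because the numbers given to the dogs only name them.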
